A study of Rattus norvegicus with 96 samples.

Results

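HAD1 and LAD1 are rat lines bred for high and for low alcohol drinking, and this is a comparison of gene expression in their central amygdala. The arrays were chosen by the line pair and preference in their titles, which gave 9 HAD1 and 10 LAD1 arrays, 19 of the 96 arrays in the series. The remaining arrays come from 4 other pairs of lines, each with a line that prefers alcohol and one that does not: HAD2/LAD2, P/NP, AA/ANA and sP/sNP. In every pair the line that prefers alcohol is named first. The titles number the animals separately (HAD1 21 to 30 without 27, LAD1 31 to 40), and each array is called here by its line and number. The labels give no age, sex, prior exposure to alcohol or hybridisation batch. All values are log2 RMA values, which the authors computed from Affymetrix rat arrays, and every difference is HAD1 minus LAD1 in log2 units unless it is named otherwise.

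The central nucleus of the amygdala is a mostly GABAergic output nucleus of the forebrain. Its neurons, many of which release peptides such as enkephalin, corticotropin-releasing hormone or somatostatin, take part in fear, stress responses and alcohol drinking. Animals of a selected line share descent, so alleles carried along by selection and alleles fixed by drift both separate the lines, and one line pair cannot tell them apart. The design asks which transcripts differ in level between the lines in this nucleus.

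Markers of the labelled tissue were read by their signal. Gad1, an enzyme of GABA synthesis, was at 14.23 ± 0.32 (SD, n = 9) in HAD1 and 14.30 ± 0.28 (n = 10) in LAD1, at the percentile 99.9 of all probe sets. Penk, the enkephalin precursor, was at percentile 97.7, Slc32a1, the vesicular GABA transporter, at 90.2, and Prkcd, a kinase of one large class of central amygdala neurons, at 65.6. Slc17a7, a glutamate transporter of cortical and basolateral amygdala neurons, was at 30.7, and Drd1, abundant in the adjoining striatum, at 78.7. Signals of different probe sets cannot be ranked as levels, so these values do not tell central amygdala from its neighbours. The median log2 value was 7.96 ± 0.02 in HAD1 and 7.96 ± 0.03 in LAD1 (exact permutation test, 2-sided, p = 0.6728). RMA makes the distributions of arrays alike, so like medians are largely given in advance and say little about array quality. The log2 ratio of 3' to 5' GAPDH probe sets, a sign of RNA integrity, was 3.84 ± 0.66 against 4.09 ± 0.46 (exact permutation p = 0.3467, adjusted over 3 measures 0.6127).

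Each array was placed between both lines with probe sets picked from the other arrays, separately on odd-numbered and even-numbered chromosomes. A score of 1 is the HAD1 median and -1 the LAD1 median. The scores of HAD1 28 were -1.03 for odd and -1.02 for even chromosomes, among the LAD1 arrays. LAD1 37 lay at 0.76 and 0.86, among the HAD1 arrays. Over all probe sets the array most like HAD1 28 was LAD1 38, while the array most like LAD1 37 was LAD1 34, of its own label. The other 17 arrays were on the side of their label, the closest to the midpoint being LAD1 39 at -0.34 and -0.78. Over all probe sets, HAD1 26 (0.9923 against 0.9919) and HAD1 30 (0.9877 against 0.9869) correlated slightly more with LAD1 than with HAD1. The array most like HAD1 30 was LAD1 37, and that most like LAD1 38 and LAD1 39 was HAD1 28. The array LAD1 36, which is LAD1 in its title and HAD1 in its source name, lay at -0.73 and -0.96, and the array most like it over all probe sets was LAD1 34. HAD1 28 and LAD1 37 are called the misfit arrays below. They were kept under their labels. Values are for all arrays unless said otherwise, and the counts of calls and the largest differences are also given without them. Since these arrays were picked for their likeness to the other line, omitting them enlarges the differences by construction.

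**Figure D1:**
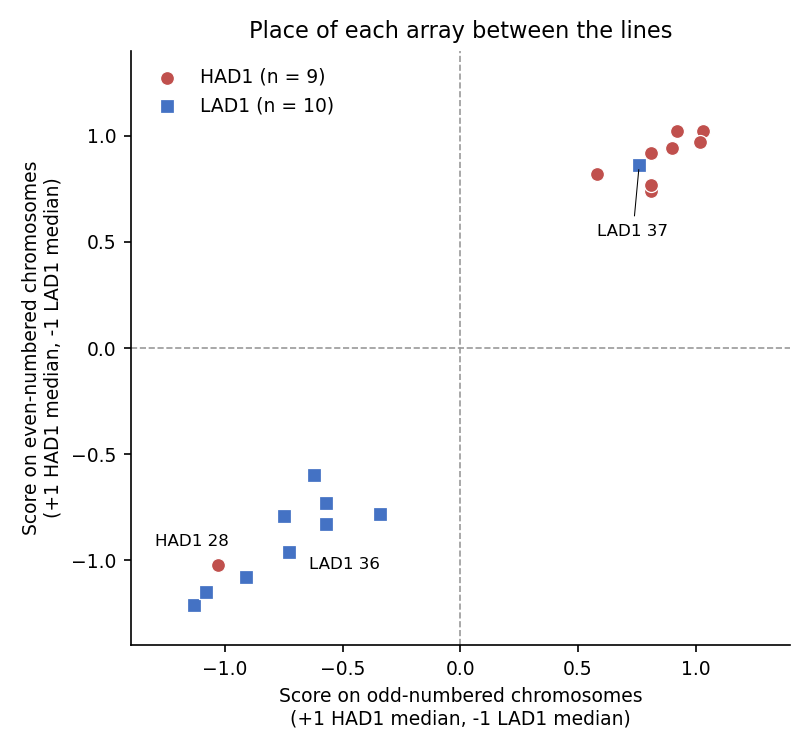
Each point is an array, placed by its score on odd-numbered (horizontal axis) and even-numbered (vertical axis) chromosomes, with +1 at the HAD1 median and -1 at the LAD1 median. HAD1 28, at -1.03 and -1.02, sits with the LAD1 arrays, LAD1 37, at 0.76 and 0.86, sits with the HAD1 arrays, and LAD1 36 is on the LAD1 side.

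Probe sets whose signal differed between HAD1 and LAD1 rats were a small part of those measured, and some differed by several fold. Signals were read as transcript levels, and sequence differences between the lines under the probes were not tested. Probe sets were called in like numbers in both directions, while at the level of genes more were lower in HAD1. A probe set is called when its Benjamini-Hochberg adjusted p from limma is under 0.05 over all 31042 probe sets. With all arrays 299 were called, which is 0.963% of them; 148 (0.477%) were higher and 151 (0.486%) lower in HAD1. Without the misfit arrays 796 were called (2.56%), 384 higher and 412 lower. All 299 stayed called in the same direction, and 293 of them had a larger difference. The choice was also made on other chromosomes than the count. With misfit arrays chosen on odd chromosomes the count on even chromosomes went from 78 to 230 of 9569, and with the choice on even chromosomes that on odd ones went from 46 to 152 of 10561. Both choices picked HAD1 28 and LAD1 37, so the arrays left out were the same as for the 796. Called probe sets had a median absolute difference of 0.63, against 0.06 over all probe sets, and 68 of the 299 differed more than 2-fold. All p-values rest on the spread among arrays within a line, which the labels name as separate animals.

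At the level of genes, with the brightest probe set of each, 99 of 14217 were called (0.696%), 33 higher (0.232%) and 66 lower (0.464%). Without the misfit arrays the count rose to 292 (2.05%), 114 higher and 178 lower. The lines did not overlap in 4 genes (0.0281%), and in 78 (0.549%) without the misfit arrays. Across the 99 genes HAD1 28 lay on the HAD1 side of the midpoint in 20 and LAD1 37 on the LAD1 side in 42, while every other array was on its own side in 82 to 98 of them, and LAD1 36 in 97. These genes were called from the same arrays under the same labels. The counts therefore lean to the labelled side by construction and are no test of the LAD1 36 label. Without LAD1 36, 180 probe sets were called, where leaving out single arrays gave 157 to 600. With LAD1 36 moved to HAD1 to follow its source name, 4 were called and 2727 had an unadjusted p under 0.05.

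Amy1, a starch-digesting amylase encoded on chromosome 2, had the largest higher value in HAD1 among named genes. Its level ran from 5.06 over a median of 9.18 to 9.71 in HAD1 and from 4.84 over 5.11 to 9.09 in LAD1. The lowest HAD1 value was that of HAD1 28 and the highest LAD1 value that of LAD1 37; in the other arrays the lines were apart, at 8.19 to 9.71 against 4.84 to 5.34. The means were 8.69 ± 1.44 (SD, n = 9) and 5.49 ± 1.3 (n = 10), 9.24-fold apart (limma adjusted p = 0.0051), and 16.7-fold without the misfit arrays. Amy2a3, the pancreatic paralog with a probe set of its own, was at the percentile 0.1 of all probe sets with a difference of -0.03, and transcripts of near-identical amylase copies cannot be told apart on the Amy1 probe set.

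Mis18a, a protein that helps load the centromeric histone and is encoded on chromosome 11, had the largest lower value among them. HAD1 arrays ran from 6.56 over a median of 6.89 to 10.77 and LAD1 arrays from 7.16 over 10.73 to 11.09. Again HAD1 28 was the highest of its line and LAD1 37 the lowest of its own, and without them the ranges were 6.56 to 7.26 and 10.49 to 11.09. The means of 7.33 ± 1.3 and 10.42 ± 1.16 differed 8.48-fold (limma adjusted p = 0.0051), and 14.7-fold without the misfit arrays.

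The sequences before the annotated starts of these genes are shown because Amy1 and Mis18a led the differences in opposite directions. They are the 250 bases upstream of the start from RefSeq on GRCr8, read on the gene's strand, Amy1 from chr2:204085911-204086160 and Mis18a from chr11:43467158-43467407, both on the minus strand. Capitals mark any match to the TATA box letters TATAAA, the CCAAT box letters, or the GC box letters GGGCGG on either strand.
Amy1: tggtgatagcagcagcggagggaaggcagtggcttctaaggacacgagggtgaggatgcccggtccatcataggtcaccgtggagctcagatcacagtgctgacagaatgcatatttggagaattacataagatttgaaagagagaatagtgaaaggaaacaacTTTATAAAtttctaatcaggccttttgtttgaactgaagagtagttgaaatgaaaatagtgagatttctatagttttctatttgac
Mis18a: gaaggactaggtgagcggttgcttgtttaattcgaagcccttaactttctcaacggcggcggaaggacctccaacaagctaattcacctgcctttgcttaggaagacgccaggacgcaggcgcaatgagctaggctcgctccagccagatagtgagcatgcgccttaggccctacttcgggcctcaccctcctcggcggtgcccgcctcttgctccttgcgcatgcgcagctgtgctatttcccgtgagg
The Amy1 window held TATAAA on both strands, 84 and 86 bases before the start, as overlapping matches, and had 40.8% G and C. The Mis18a window held no match and had 58.4% G and C. Of 33469 promoter windows of this length, 12.9% held TATAAA, 34% CCAAT and 30.5% GGGCGG.

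Among the other genes that were higher in HAD1, Cyp2j10, a cytochrome P450 of the family that oxidises fatty acids, followed Amy1. It ran from 6.60 over 9.56 to 10.12 in HAD1 and from 6.39 over 6.85 to 9.92 in LAD1, and outside the misfit arrays the lines did not overlap. Its difference was 2.07 (SE 0.42, limma adjusted p = 0.0173), and 2.7 (SE 0.18) without the misfit arrays. Kif15, a mitotic kinesin, was 3.41-fold higher, at 8.94 ± 0.77 against 7.18 ± 0.71 (adjusted p = 0.0051). Nrg1, a ligand of the ErbB receptors on neurons and glia, was 2.93-fold higher, at 9.92 ± 0.80 against 8.37 ± 0.63 (adjusted p = 0.0090). Their differences without the misfit arrays were 2.2 (SE 0.16) and 1.93 (SE 0.18). For Kif15 and Nrg1, HAD1 28 was the only HAD1 array inside the LAD1 range set by the arrays other than LAD1 37.

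The rest had varied functions. Rock2, a protein kinase, was 2.2-fold higher, Elavl1, an RNA-binding protein that stabilises messenger RNA, also 2.2-fold, and Klhl42, an adaptor of a ubiquitin ligase, 2.1-fold. Ccnd2, a D-type cyclin, was 2.06-fold higher, and Zfhx3, a transcription factor with homeobox and zinc finger domains, 1.77-fold. Ppm1a, a protein phosphatase, differed by 0.78 with an SE of 0.10, which made its adjusted p one of the lowest (limma, 9.52e-04). Dnal1, an axonemal dynein light chain, and Ngb, the oxygen-binding neuroglobin, were 1.65-fold and 1.62-fold higher. These 12 genes are the largest of the called genes with an informative symbol, and for 11 of them every HAD1 array other than HAD1 28 lay on the HAD1 side of the midpoint; HAD1 24 was on the other side for Elavl1.

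**Figure D2:**
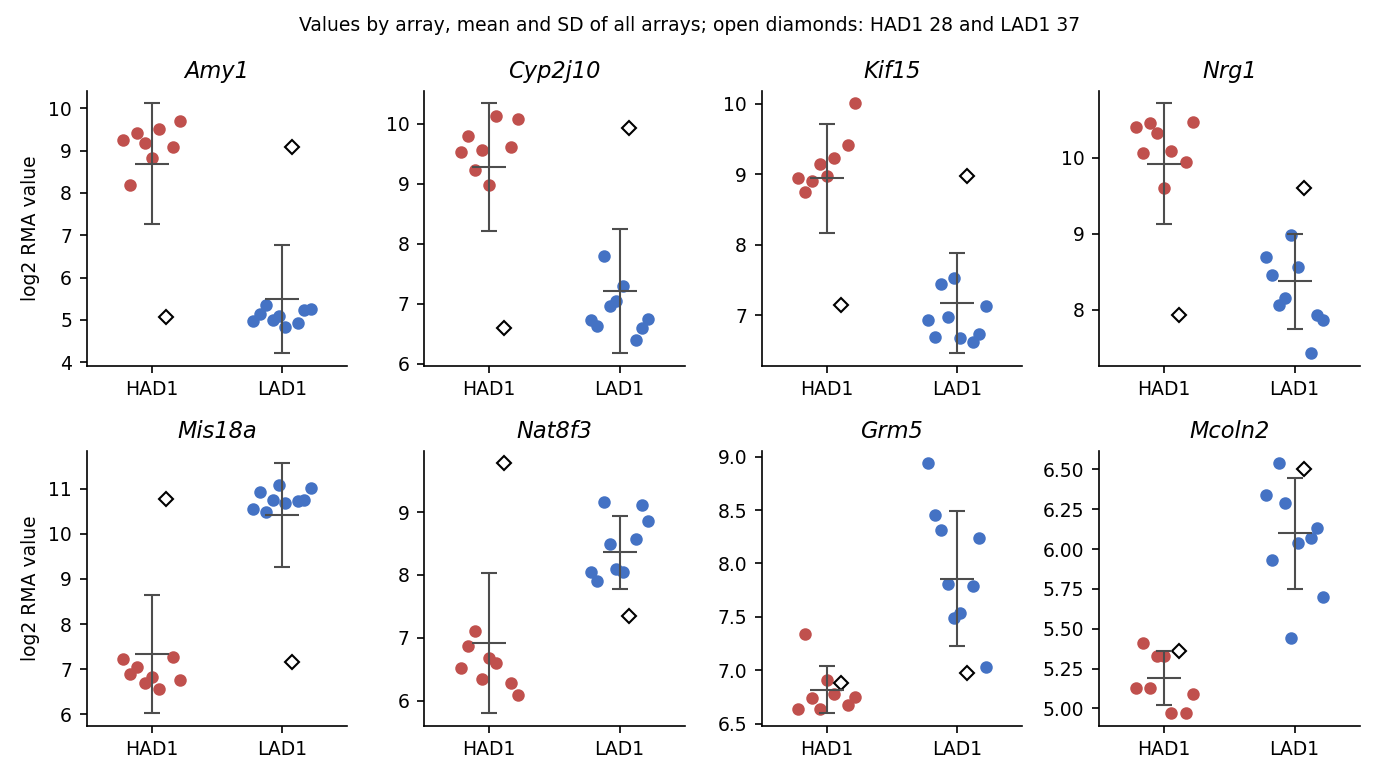
The vertical axis gives the log2 RMA value of 8 genes, with a point for each HAD1 (red) and LAD1 (blue) array, the mean of all arrays as a dash and its SD as a bar. Open diamonds are HAD1 28 and LAD1 37, which lie with the other line for Amy1, Cyp2j10, Kif15 and Mis18a but with their own line for Mcoln2.

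Of the genes lower in HAD1, Nat8f3, of a family of N-acetyltransferases, came after Mis18a. It ran from 6.09 over 6.59 to 9.78 in HAD1 and from 7.34 over 8.29 to 9.16 in LAD1. The highest value of all 19 was thus that of HAD1 28, and the ranges without the misfit arrays were 6.09 to 7.10 and 7.90 to 9.16. The difference of -1.44 (SE 0.35) was just past the threshold (limma adjusted p = 0.0489), and it was -1.92 (SE 0.18) without the misfit arrays. Grifin, a galectin-related protein, was 2.25-fold lower.

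Grm5, the metabotropic glutamate receptor that couples to calcium release, was 2.06-fold lower by its brightest probe set. HAD1 arrays ran from 6.64 over 6.75 to 7.34 and LAD1 arrays from 6.97 over 7.80 to 8.94, and HAD1 28, at 6.88, did not stand apart here. The difference of -1.04 (SE 0.20, limma adjusted p = 0.0098) was not seen on the second Grm5 probe set, at 0.05 (adjusted p = 0.8204). Homer2, a scaffold of this receptor that was named after its values were seen, had a difference of -0.53 that did not pass with all arrays (adjusted p = 0.1407) and of -0.66 that passed without the misfit arrays (adjusted p = 0.0041).

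Mcoln2, a lysosomal cation channel on chromosome 2, was the called gene with the lowest adjusted p (limma, 6.76e-04). All HAD1 arrays were at 4.97 to 5.41 and all LAD1 arrays at 5.44 to 6.54, and neither misfit array was the highest or lowest of its line. Its difference was -0.91 (SE 0.11) with and -0.88 (SE 0.12) without the misfit arrays, at the percentile 16 of level. Pkp2 was the other of the 34 called genes named by rule whose lines did not overlap; over all probe sets 6 had this (0.0193%), and 227 (0.731%) without the misfit arrays, when 26 of the 34 had it.

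The remaining lower genes with large differences covered several functions. Nek1, a kinase of the DNA damage response and cilia, was 1.94-fold lower, Inhca, an inhibitor of carbonic anhydrase, 1.91-fold, and Tom1l3 2.05-fold. Gsta4, a glutathione transferase that clears products of lipid peroxidation, was 1.87-fold lower, at 10.28 ± 0.39 against 11.18 ± 0.32 (limma adjusted p = 0.0051). Gsn, the actin-severing gelsolin that is abundant in myelinating cells, was 1.83-fold lower, at 12.59 ± 0.45 against 13.46 ± 0.45. Grhl3, an epithelial transcription factor, Nfat5, the transcription factor of the osmotic stress response, and Tmem176a, a membrane protein, were 1.76-fold, 1.75-fold and 1.72-fold lower.

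A gene was often called on a single probe set. The 13 named and called genes with further probe sets had 26 of these, of which 1, of Dnm1l, was called in the same direction and 0 in the opposite one by limma. Nrg1 had 7 others, from -0.01 to 0.30. Rock2 had 3, and that at -0.45 (adjusted p = 0.0803) was called at -0.60 without the misfit arrays, against 1.11 for the brightest. Another 4 were called in the direction of the brightest without the misfit arrays, of Nrg1 (0.41), Elavl1 (0.31), Zfhx3 (0.63) and Dnal1 (0.41). Some probe sets close to the brightest in signal did not pass with or without the misfit arrays. With all arrays these were at -0.11 for Elavl1, 0.05 for Rock2, 0.14 for Zfhx3 and 0.03 for Nfat5. Over all genes with several probe sets and a call, 72 of 79 had 1 called, 5 had several called in 1 direction and 2 had calls in opposite directions. The last were Gnpat, a peroxisomal enzyme of ether lipid synthesis, at 0.32 and -0.51, and Zbtb20, a transcriptional repressor, at 0.97 and -0.68 on probe sets that were not its brightest.

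Few genes of the transmission lists were called between HAD1 and LAD1. Of 14 central amygdala neuron markers, limma called 0, and 3 had an unadjusted p under 0.05, all positive; 8 were positive, with a median difference of 0.04, against 43.8% positive and a median of -0.01 over all 14217 genes. With the misfit arrays left out 6 were positive, with a median of -0.01. Crh, the corticotropin-releasing hormone, ran from 6.37 over 7.50 to 8.28 in HAD1 and from 5.90 over 6.79 to 7.61 in LAD1. Its difference of 0.67 (SE 0.24) did not pass (limma adjusted p = 0.2436). Npy, a peptide linked to alcohol drinking, was at 8.90 ± 0.23 and 9.0 ± 0.32. Of 24 neuropeptides 0 were called and 4 had an unadjusted p under 0.05, all positive; of 28 neuropeptide receptors the counts were 0 and 10, of which 9 were positive, where 10.3% of all genes had such a p.

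Of 11 measured subunits of the GABA-A receptor, the main inhibitory receptor, 8 were positive, with a median of 0.14, and Gabra3 was called. It was at 5.60 to 6.06 in HAD1 and 5.30 to 5.66 in LAD1, overlapping ranges, with a difference of 0.27 (SE 0.06, limma adjusted p = 0.0263) at the low percentile 15.3. Its call was lost on leaving out 5 arrays singly, LAD1 36 among them (adjusted p up to 0.0590). Gabra2, linked to alcohol dependence, differed by 0.15 (SE 0.16, adjusted p = 0.7915). Among 28 glutamate receptor and transporter genes only Grm5 was called, and Grm2, a presynaptic receptor, was at -0.19 (SE 0.11, adjusted p = 0.5472). Among 32 monoamine genes only Htr5b, a serotonin receptor, was called, at 7.51 ± 0.20 against 7.85 ± 0.15 (adjusted p = 0.0435). Over all genes 0.696% were called. Htr5b was lost on leaving out 12 of the 19 arrays singly, LAD1 36 among them (adjusted p up to 0.0921), as well as with the GAPDH ratio as covariate and in the fit of all 10 groups. The lists of ion channels (29 genes), synaptic vesicle genes (27), acetylcholine genes (14) and cAMP and protein kinase C genes (27) had 0 calls by limma, and 4, 2, 2 and 5 members with an unadjusted p under 0.05.

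Enzyme lists had calls of single members, where 0.696% of all genes were called. Amy1 was the called gene of 13 digestive enzymes, Cyp2j10 and Nat8f3 those of 26 cytochrome P450 and related enzymes, and Gsta4 that of 34 glutathione and antioxidant genes. The other 12 digestive enzymes lay between -0.08 and 0.13. Of 18 genes of alcohol and aldehyde metabolism limma called 0 with all arrays, and 2 had an unadjusted p under 0.05. Those were Aldh1a1 and Aldh2, which oxidise aldehydes and were called without the misfit arrays. Aldh1a1 went from -0.92 (SE 0.26, adjusted p = 0.0983) to -1.19 (SE 0.21, adjusted p = 0.0017) and Aldh2 from -0.40 (SE 0.11, 0.0934) to -0.51 (SE 0.09, 0.0027). The cell division list, which was drawn up with earlier results of these arrays known, had 4 calls among 28 genes, also against 0.696% of all genes, Kif15 and Ccnd2 higher and Mis18a and Nek1 lower. Its other 24 members lay between -0.26 and 0.38, Mki67, a marker of dividing cells, at -0.26.

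Markers of microglia, the immune cells of the brain, were lower in HAD1 as a list. All 15 measured markers had a negative difference, with a median of -0.17 (-0.22 without the misfit arrays), and 2 were called, where 0.696% of all genes were. Cx3cr1, the fractalkine receptor, ran from 7.30 over 7.64 to 7.99 in HAD1 and from 7.74 over 8.04 to 8.19 in LAD1. The ranges overlapped, and the difference was -0.40 (SE 0.09, limma adjusted p = 0.0348). C1qc, a chain of the first complement component, was at 8.66 ± 0.24 against 9.14 ± 0.25, with a difference of -0.48 (SE 0.11, adjusted p = 0.0266). The largest differences that did not pass were Aif1 at -0.50, C1qa at -0.39 and Tyrobp at -0.37, and P2ry12, a receptor of resting microglia, was at -0.12. C1qa was called as well without the misfit arrays (-0.43, SE 0.10, adjusted p = 0.0153).

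By array, the mean log2 value of the 15 microglial markers ran from 9.01 over 9.24 to 9.43 in HAD1 and from 9.24 over 9.47 to 9.69 in LAD1. HAD1 28, at 9.43, was the highest of its line, and LAD1 37, at 9.50, lay within its own. All 15 (11 in the brighter 50% of probe sets) were negative under each alternative fit run, including a repeated quantile normalization and the RNA quality ratio as a covariate. The calls did not: without LAD1 36 neither Cx3cr1 nor C1qc passed, and Cx3cr1 was lost on leaving out 13 of the 19 arrays singly and C1qc on 8, with adjusted p up to 0.0766 and 0.0579 (differences -0.44 to -0.36 and -0.53 to -0.43). In bulk tissue, fewer cells of a type and less RNA per cell cannot be told apart. Astrocyte (11), oligodendrocyte (15) and oligodendrocyte precursor (4) lists had 0 calls by limma and 1, 1 and 0 members with an unadjusted p under 0.05, and medians between -0.06 and -0.02. Their members were mostly negative too, with 1, 4 and 0 positive, where 43.8% of all genes were positive. Without the misfit arrays 3, 6 and 2 were positive, against 45.3% of all genes and 0 microglial markers.

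**Figure D3:**
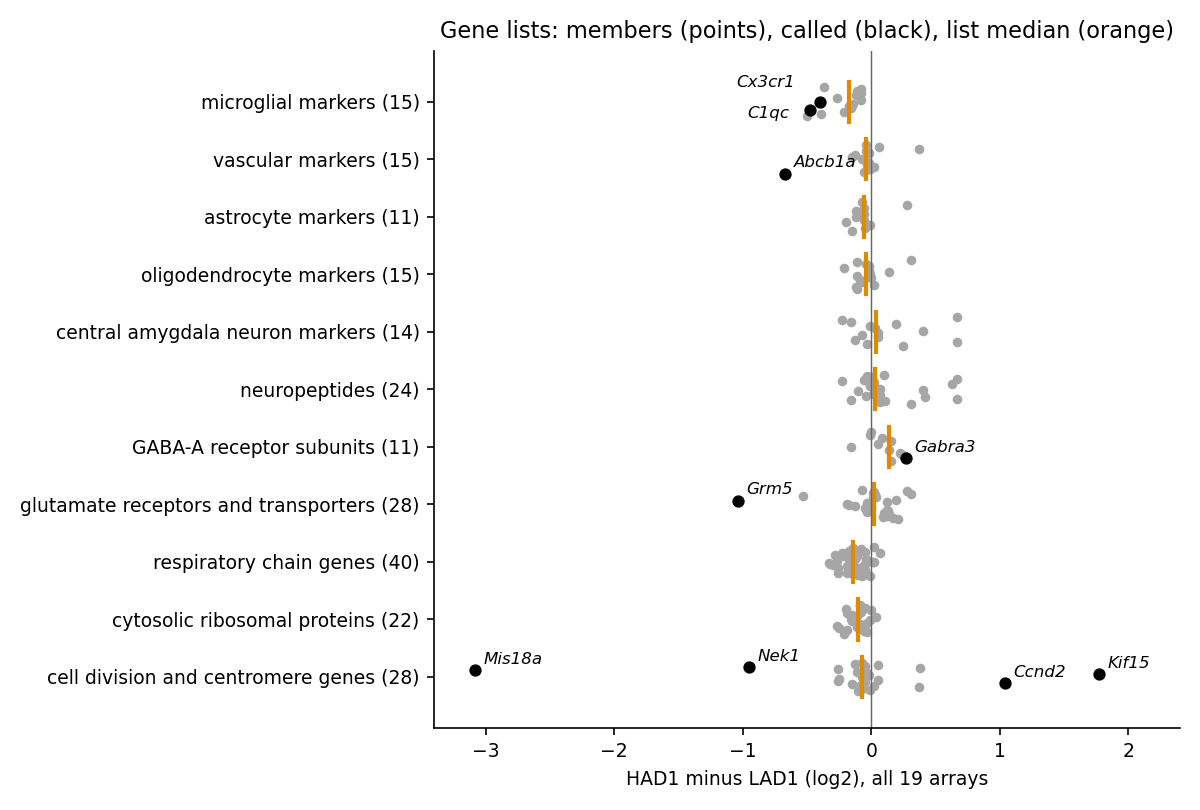
The horizontal axis gives the HAD1 minus LAD1 difference (log2, all 19 arrays) of every measured member of 11 gene lists, whose size stands in brackets. Black points passed the test and orange lines are list medians; all microglial markers lie below 0, and the calls of the cell division list lie on both sides.

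Single genes of the vascular and choroid plexus lists were lower in HAD1. From the vascular list of 15, Abcb1a, the drug efflux pump of the blood-brain barrier, was called at 8.69 ± 0.41 against 9.36 ± 0.36 (difference -0.67, SE 0.16, limma adjusted p = 0.0403), and the list median was -0.04. The call was lost on leaving out 14 of the 19 arrays singly, LAD1 36 among them (adjusted p up to 0.0918). A second Abcb1a probe set, at -0.22, did not pass. Tek, an endothelial receptor of that list, was at 0.37 (adjusted p = 0.0873) and was called at 0.49 without the misfit arrays. Igf2, a growth factor of choroid plexus and meninges, was the called gene of 9 choroid plexus and ependymal markers, at -0.45 (SE 0.11, adjusted p = 0.0480). It too was lost on 14 single omissions, LAD1 36 among them (up to 0.1049), and 3 other Igf2 probe sets were at 0.04, 0.04 and 0.08. Named after their values were seen, Pf4, a chemokine of platelets and macrophages, was at -0.64, Tagln and Myh11, proteins of smooth muscle, at -0.50 and -0.46, Mmp2, a matrix protease, at -0.46, and Col1a2, a collagen, at -0.40. These were called, but the second probe sets of Myh11, Mmp2 and Col1a2 were at -0.03, -0.08 and -0.02 and did not pass. For Pf4, Tagln, Myh11, Mmp2 and Col1a2 HAD2 minus LAD2 was 0.44, 0.41, 0.44, 0.14 and 0.12. Of these only Pf4 was called there. Acta2, the smooth muscle actin of the vascular list, was at -0.06 and Cldn5, an endothelial junction protein, at -0.01. By array, the mean of the 15 vascular markers ran from 8.85 over 8.98 to 9.19 in HAD1 and from 8.84 over 9.03 to 9.27 in LAD1, and its part in these differences was not tested.

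Energy and protein synthesis lists shifted by little. Of 40 respiratory chain genes 4 were positive, with a median of -0.14, and of 22 cytosolic ribosomal protein genes 1 was positive, with a median of -0.10. Limma called 0 in both, and 8 and 3 had an unadjusted p under 0.05, all negative. The medians moved to -0.08 and -0.03, with 5 genes of each list positive, when the GAPDH ratio entered as a covariate. In the fit of all 10 groups 7 and 1 members were called. In total 20 of 31 lists had no call, and 16 of the 580 measured list genes were called, where 99 of 14217 (0.696%) were over all genes. The lists were chosen with earlier results of these arrays known.

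Genes of the major histocompatibility complex on chromosome 20, which present antigens, gained calls without the misfit arrays. Of 21 genes limma called 0 with all arrays, and 7 had an unadjusted p under 0.05. With array weights, in the fit of all 10 groups, without HAD1 28 and without LAD1 37, 1 was called each time. Without both misfit arrays 3 were higher and 2 lower, where 2.05% of all genes were called. RT1-T24-4, a class I gene, ran from 1.2 (SE 0.40, adjusted p = 0.1842) to 1.68 (SE 0.31, adjusted p = 0.0022), RT1-CE16 from 0.63 to 0.86 and RT1-S3 from 0.43 to 0.66, and the lower ones were RT1-A3 at -0.26 and RT1-DMb, which serves class II loading, at -0.29. HAD1 26 and HAD1 30 were on the LAD1 side for RT1-T24-4 and RT1-CE16, so that HAD1 arrays also differed among themselves here. In HAD2 minus LAD2 the 3 higher genes were at 2.32, 0.74 and 1.19 and the 2 lower ones at -0.33 and -0.47, all called. The 5 genes were named after their values were seen. These genes are close paralogs, and probe sets can take up transcripts of several.

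The share of genes called was 0.696% in all and is given by chromosome as a description. It was highest on chromosome 11, with 7 of 373 genes (1.88%), then chromosome 19 with 1.55%, 4 with 1.49% and 16 with 1.46%, and it was 0.112% on chromosome 7. Without the misfit arrays the highest were chromosomes 11 (4.56%), 20 (3.76%) and 12 (3.27%), and chromosome 20, which holds the histocompatibility genes, was at 0.251% with all arrays. In the order of the RefSeq table, a run is at least 3 called genes with at most 5 measured genes between neighbours. With all arrays there was 1 run, on chromosome 11: Dnm1l, the GTPase of mitochondrial fission, was higher (0.62, SE 0.12, limma adjusted p = 0.0122), while Pkp2, a desmosomal plakophilin, and Mzt2b, a subunit of the microtubule nucleating complex, were lower (-0.34 and -0.64). Both called probe sets of Dnm1l were higher. All LAD1 arrays of Pkp2 were at 7.42 to 7.63 and all HAD1 arrays at 6.87 to 7.36.

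Without the misfit arrays 16 runs held 59 genes, and 11 of the runs mixed higher and lower genes. The run on chromosome 11 then also held Ypel1 at 0.58, Top3b, a topoisomerase, at -0.39, and Spidr, a DNA repair protein, at -0.63. On chromosome 19 Nfat5 (-1.04) and Zfhx3 (0.97) stood in a run with Hp, the haemoglobin-binding haptoglobin (0.46), Chst4, a sulfotransferase (0.29), and Zfp612 (-0.56). On chromosome 8 the unconventional myosins Myo5a and Myo5c lay side by side at -1.01 and 1.17, between Atosa at 0.60 and the actin-capping tropomodulins Tmod3 and Tmod2 at -0.45 and 0.61. With all arrays Myo5a was at -0.80 (adjusted p = 0.0449) and Myo5c at 0.86 (adjusted p = 0.0751). On chromosome 3 Gsn and Morn5 were lower, and Ptgs1, a cyclooxygenase, and Pdcl, a phosducin-like chaperone of G proteins, higher.

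**Figure D4:**
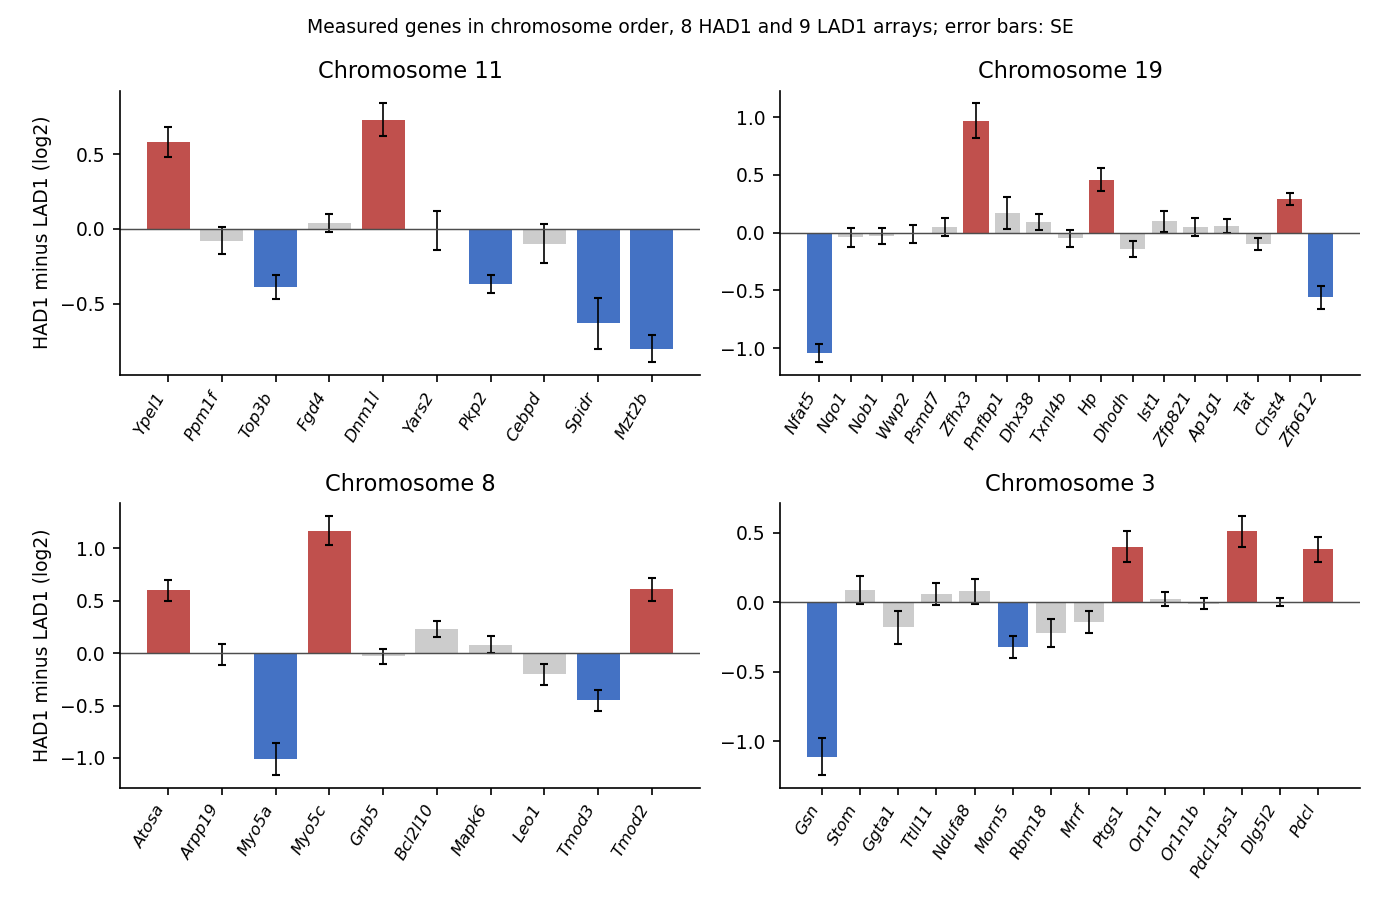
Bars give the HAD1 minus LAD1 difference (log2, 8 HAD1 and 9 LAD1 arrays, without the misfit arrays) of neighbouring measured genes in chromosome order, with the SE as error bar. Red bars are called higher, blue bars called lower and grey bars not called; each of the 4 runs holds called genes of both directions.

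The same probe sets were then read in the second HAD and LAD pair, HAD2 and LAD2, which shares no array with HAD1 and LAD1. Of the 299 called probe sets 100 (33.4%) were also called there, where 4.09% of all probe sets were; they were 7.87% of the 1271 called in HAD2 and LAD2. Of the 100, 50 had the same direction and 50 the opposite one. Without the misfit arrays 242 of 796 (30.4%, 19% of the 1271) were shared, 135 in the same direction and 107 in the opposite. Limma called 0 probe sets in each of the other pairs, P/NP, AA/ANA and sP/sNP. At an unadjusted p under 0.05 these pairs had 1523, 1528 and 1341 of 31042. Chance alone gives a share of about 0.05, and each of these counts was below that. HAD1 and LAD1 had 3426. In the same order of pairs, 46.8%, 50.5% and 50.8% of the 299 had the sign of HAD1 and LAD1 there, against 51.6%, 55.4% and 51.0% of all probe sets. In HAD2 and LAD2 it was 47.2% of the 299 and 40.9% of all.

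Among genes that had the same direction in both pairs, Kif15 differed by 1.77 in HAD1 and 2.23 in HAD2, Rock2 by 1.11 and 1.13, and Nek1 by -0.95 and -0.91. Grm5 was lower in both, at -1.04 and -2.16, as was Cx3cr1, at -0.40 and -0.30. Opposite directions were seen for Elavl1, at 1.11 and -1.96, Klhl42, at 1.07 and -0.58, Zfhx3, at 0.83 and -0.64, Gsn, at -0.87 and 0.80, Grifin, at -1.17 and 0.88, and Abcb1a, at -0.67 and 0.66. On probe sets that were not the brightest of their gene, Plekhh1 was at 3.01 and 2.9 and Mx2, an interferon-induced GTPase, at -2.95 and 3.40. Galnt1, a glycosyltransferase, and Crebl2, a bZIP protein, were at 1.88 and 1.53 in HAD1 and at -1.79 and -1.52 in HAD2.

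**Figure D5:**
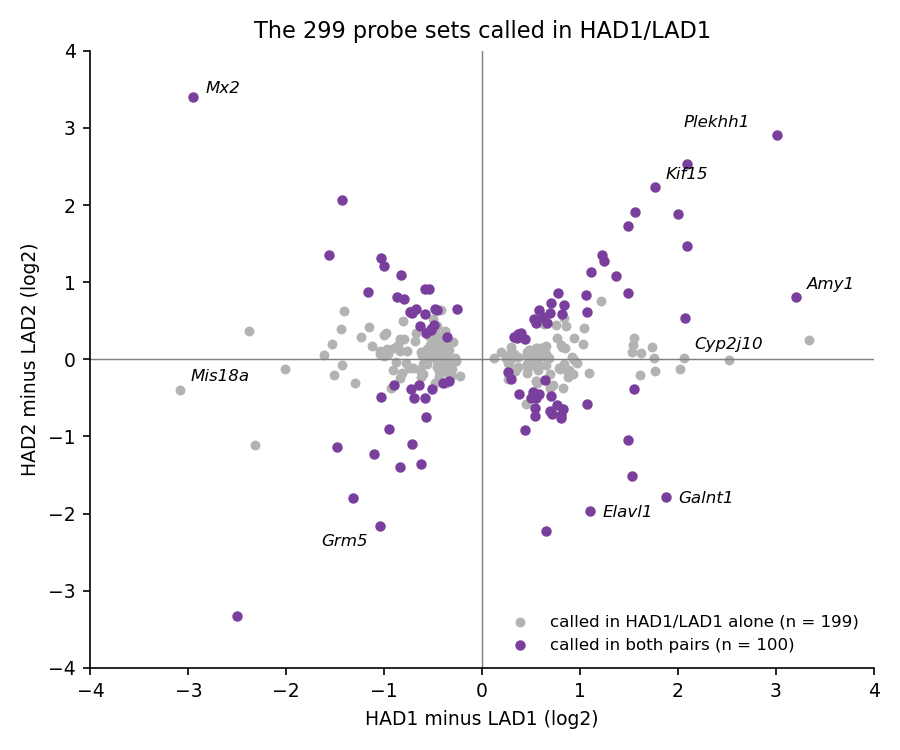
Each point is a probe set called between HAD1 and LAD1, with its HAD1 minus LAD1 difference on the horizontal and its HAD2 minus LAD2 difference on the vertical axis (log2). Purple points, 100 of 299, were called in both pairs and fill all 4 quadrants, 50 in the same and 50 in the opposite direction.

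A direct test asked whether the difference itself differed between pairs. Against HAD2 minus LAD2 limma called 1325 probe sets (4.27%; 4.38% without the misfit arrays), among them 168 (56.2%) of the 299 called between HAD1 and LAD1. Against the mean of the other 4 pairs it called 586 (1.89%; 2.77% without the misfit arrays), among them 218 (72.9%) of the 299. Of the 34 called genes named by rule, 18 passed the first test and 27 the second. Limma called 0 probe sets in P/NP, AA/ANA and sP/sNP, which enter the mean of 4. A pass in the second test can thus come largely from HAD1 minus LAD1 itself. The 299 probe sets and 34 genes were chosen by the same HAD1 minus LAD1 difference that enters both tests. That choice raises these counts and shares by construction. Amy1 differed from HAD2 minus LAD2 by 2.4 (SE 0.47, adjusted p = 2.49e-04), although it was called there at 0.81, and from the mean of the other pairs by 3.38 (SE 0.38, adjusted p = 2.21e-10). Mis18a differed by -2.69 (SE 0.36) and -2.99 (SE 0.29), Nrg1 by 1.27 and 1.59, Cyp2j10 by 2.04 and 2.2, and Mcoln2 by -0.76 and -0.86. In P/NP, AA/ANA and sP/sNP no line mean was above 5.73 for Amy1, 5.41 for Mis18a or 4.96 for Mcoln2. HAD2 and LAD2 were at 8.21 and 7.4 for Amy1, and at 10.07 and 10.46 for Mis18a. At low signal a line difference can go unseen. For these genes the test against the mean of 4 cannot tell an absent line difference from an unseen one.

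Kif15 and Rock2 did not differ from HAD2 minus LAD2 past the threshold (-0.46, SE 0.31, and -0.02, SE 0.19), while both passed against the mean of 4. Cx3cr1 did not pass against HAD2 minus LAD2 (-0.09, SE 0.10) and passed against the mean of 4 at -0.30 (SE 0.08, limma adjusted p = 0.0310). C1qc passed neither, at -0.18 (SE 0.18) and -0.42 (SE 0.14, adjusted p = 0.1217). Among the lowest p against HAD2 minus LAD2 were Dguok, a kinase of mitochondrial DNA synthesis, Irgq, and Pnlip, a pancreatic-type lipase. HAD1 and LAD1 differed in these by 0.04, 0.10 and -0.08, which did not pass, and HAD2 and LAD2 by -2.61, -0.96 and -2.11.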

How the data were processed

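RNA of the central amygdala was hybridised to Affymetrix rat arrays after the 2-cycle protocol from 25 ng of total RNA, per the labels' protocols. The authors deposited log2 values made with RMA, per the submitters' processing notes; no label states the RMA version or which arrays were normalized jointly. No detection calls were used, and precision is limited by how many arrays there are. Every value column matched a sample. Without 57 AFFX controls, 31042 probe sets remained. Of these, 20826 carried 1 symbol in the platform annotation, 436 several and 9780 none; 20758 matched RefSeq genes (GRCr8, used for names, chromosomes and gene order), with 0 symbols changed. Each gene is represented by the brightest probe set that carries its symbol alone.

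Groups follow the titles. Tests used limma 3.58.1 in R 4.3.3 with an intensity trend, 2-sided, on HAD1 and LAD1 arrays alone; tests between pairs used all 96 arrays in 1 fit of 10 groups. The array score used the 100 probe sets that best separated the other arrays. On simulated arrays, limma found 78.8% of probe sets made to differ by 0.5 log2 between HAD1 and LAD1. Of those made to differ by 1 or 2 it found 100%, with 6 false calls among the probe sets left unchanged. For a difference between pairs it found 59.1% at 0.5 and 94.0% at 1, with 9 false calls among the probe sets left unchanged. Both simulations drew independent normal noise for each probe set and held no misfit arrays. Their shares and false calls need not hold for the measured arrays.

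Named genes are the 12 largest called in each direction, the 5 with the smallest p, up to 3 called members per list and direction, the genes of the 3 longest runs (1 was found), the 5 smallest p of each test between pairs, and Npy, Crh, Grm2 and Gabra2; 3 called genes without an informative symbol were skipped, and genes said to be named after their values were seen, further run genes and MHC, aldehyde and HAD2 examples fall outside the rule. Members and lists were chosen with earlier results of these data known. Of 662 list genes 580 were measured and 82 are not analysed here. Alternatives changed arrays, weights, normalization, covariate, filter and variance model.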

Additional observations from a re-analysis of the deposited data

Results flagged for a closer look

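Among the named genes and array scores, 78 sets of values of one line were searched for an array far from the other arrays of its line. Of these 34 had one. Chance gives about 1 in 20 for independent sets, but these sets share the same arrays. The scores also served to pick HAD1 28 and LAD1 37, and many of the genes were named for large line differences. HAD1 28 stood apart in 21, with its log2 value for Amy1 (5.06), Cyp2j10 (6.60), Kif15 (7.14), Nrg1 (7.93), Rock2 (10.26), Klhl42 (7.82), Ccnd2 (9.03), Zfhx3 (8.64), Ppm1a (7.69), Dnal1 (9.70), Ngb (9.09), Mis18a (10.77), Nat8f3 (9.78), Grifin (8.26), Inhca (7.91), Gsn (13.63), Nfat5 (11.49), Tmem176a (11.11) and Mzt2b (9.72), and with its scores of -1.03 and -1.02 on odd and even chromosomes. LAD1 37 stood apart in 11, with its value for Amy1 (9.09), Cyp2j10 (9.92), Kif15 (8.98), Rock2 (11.30), Elavl1 (10.71), Klhl42 (9.08), Mis18a (7.16), Nfat5 (10.32) and Mzt2b (9.01), and with its scores of 0.76 and 0.86. HAD1 22 stood apart for Grm5 (7.34) and HAD1 25 for Gabra3 (6.06).

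The HAD1 minus LAD1 difference of several genes also differed from that of other line pairs by limma's test of the difference between pairs. Against HAD2 minus LAD2 it was more positive for Amy1 (2.4), Cyp2j10 (2.04), Nrg1 (1.27), Elavl1 (3.07), Klhl42 (1.65), Zfhx3 (1.47), Ppm1a (0.89), Dnal1 (1.06), Ngb (1.07), Grm5 (1.11), Dguok (2.65), Irgq (1.06) and Pnlip (2.03), and more negative for Mis18a (-2.69), Nat8f3 (-1.84), Grifin (-2.05), Mcoln2 (-0.76), Gsn (-1.67), Nfat5 (-1.31), Tmem176a (-0.74) and Abcb1a (-1.33). For Grm5 the differences were -1.04 in HAD1 minus LAD1 and -2.16 in HAD2 minus LAD2. For Amy1, Mis18a and Mcoln2 the mean of the other 4 pairs includes pairs with low signal in both lines. Against the mean of the other 4 pairs it was more positive for Amy1 (3.38), Cyp2j10 (2.2), Kif15 (1.3), Nrg1 (1.59), Rock2 (0.77), Elavl1 (1.81), Klhl42 (1.2), Ccnd2 (0.94), Zfhx3 (1.04), Ppm1a (0.79), Dnal1 (0.84), Ngb (0.76), Dnm1l (0.46), Dguok (0.68) and Irgq (0.31), and more negative for Mis18a (-2.99), Nat8f3 (-1.30), Grifin (-1.41), Tom1l3 (-0.85), Inhca (-0.85), Mcoln2 (-0.86), Gsta4 (-1.05), Gsn (-1.0), Grhl3 (-0.80), Nfat5 (-0.93), Tmem176a (-0.76), Cx3cr1 (-0.30), Abcb1a (-0.97) and Mzt2b (-0.53).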

How the results depend on the processing

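The count of 299 probe sets called between HAD1 and LAD1 moved with the arrays used. It was 796 without the misfit arrays, 683 without these and LAD1 36, 4 with LAD1 36 counted as HAD1, 700 with array weights, 785 in 1 fit of all 10 groups (250 of the 299 among them), 194 in the brighter 50% of probe sets and 80 with 1 probe set per gene. Leaving out single arrays gave 157 to 600, and 12 of 19 omissions moved it over 1.5 times: the omission of HAD1 21 gave 157, of HAD1 23 159, of HAD1 24 177, of HAD1 25 192, of HAD1 29 175, of LAD1 32 192, of LAD1 33 177, of LAD1 34 166, of LAD1 35 191 and of LAD1 36 180, while that of HAD1 28 gave 600 and that of LAD1 37 477. These single omissions, other than HAD1 28, LAD1 36 and LAD1 37, were added after seeing the data. Repeated quantile normalization (343), the GAPDH ratio as covariate (334, 185 of them higher), no trend (277) and robust variances (269) stayed within 1.5 times. On even chromosomes 78 became 230 and on odd ones 46 became 152 without the misfit arrays. The tests between pairs gave 3758 instead of 1325 and 1529 instead of 586 with array weights. The cause of these shifts was not tested. Some of the settings also used fewer probe sets or arrays.

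Of the 34 named and called genes, 23 stayed called whichever single array was left out, and no sign reversed under any alternative run. Zfhx3 was lost without HAD1 24 (adjusted p = 0.0501) and Inhca without HAD1 21 (0.0515). Gsn and Gabra3 were lost with 5 arrays each (HAD1 22, 24 and 25, LAD1 33 and 34, up to 0.0534; HAD1 21 and 23, LAD1 33, 34 and 36, up to 0.0590). C1qc was lost with 8 arrays, Htr5b with 12, Cx3cr1 with 13, Abcb1a and Igf2 with 14, Elavl1 with 16 and Nat8f3 with 17, at adjusted p up to 0.1084. With LAD1 36 as HAD1 only Mcoln2 stayed called. All 34 passed without the misfit arrays and with array weights.

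Of the 7761 dimmest probe sets, with means up to 6.28, 0.309% were called, against 1.2%, 1.68% and 0.644% in the next 3 groups of that size by signal. No paired analysis was possible because HAD1 and LAD1 arrays carry different replicate numbers.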
